A study of Gallus gallus with 8 samples.

Results

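Microtubules are hollow polymers of alpha and beta tubulin that serve as tracks and scaffolds inside cells. Kinesins are motor proteins that mostly walk towards the growing (plus) end of a microtubule, while cytoplasmic dynein, helped by the dynactin complex, walks towards the minus end. In the sensory epithelia of the inner ear, microtubules fill the pillar-like bodies of supporting cells, run through hair cells below the hair bundle and build the kinocilium, the true cilium beside that bundle, whose assembly relies on motors of both kinds. The genes described here are the chicken kinesins, the alpha, beta and gamma tubulins, the proteins of the gamma tubulin ring complex, the subunits of cytoplasmic dynein and dynactin, the dynein light chains, the end-binding proteins and the tubulin folding cofactors. They were chosen by their names in the deposited annotation (KIF, TUBA, TUBB, TUBG, TUBGCP, DYNC, DYNL, DCTN, MAPRE, and TBC followed by a letter from A to E). Of 67 such genes, 49 were tested because at least 4 of the 8 arrays read above 4 on the log2 scale, out of 8543 named genes tested in all. Each gene was read at 1 probe set (the group of short probes that reports a transcript), the one with the highest mean over the 8 arrays.

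Expression was measured on Affymetrix chicken arrays in 2 sensory epithelia of chick embryos, the utricle, a balance organ, and the cochlea, the hearing organ, with 4 arrays for each. Both groups came from eggs kept at 38 °C to embryonic day 20 to 21, and differ by organ alone in the labels, which name no strain, genotype or treatment. Every array carried the RNA of a pool of 10 to 20 microdissected epithelia, described by the submitters as hair cells with supporting cells, and amplification started from 0.08 µg. The labels call the arrays of an organ biological replicates, and what separates one pool from another is not stated. Values are log2 GCRMA signals (a background-corrected, normalised measure of array brightness), errors are SDs over 4 arrays, and differences are utricle minus cochlea with 95% confidence intervals and adjusted p-values from limma over all probe sets tested.

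The arrays of an organ resembled each other more than those of the other organ, and correlations over the tested probe sets were 0.9776 to 0.9873 for pairs of utricle arrays, 0.983 to 0.9913 for cochlear pairs and 0.8573 to 0.8843 for mixed pairs. The utricle arrays split on CALB1, a calcium-binding protein that read 15.33 to 15.42 on the cochlear arrays, 7.47 and 6.89 on utricle arrays 2 and 3, and 2.49 and 2.50 on utricle arrays 1 and 4. Among the hair cell markers, 8 were tested, of which 4 passed towards the utricle and 2 towards the cochlea. MYO7A, a hair cell myosin among the 4, had utricle and cochlear means of 8.60 ± 0.36 and 7.81 ± 0.21. CALB2, also among the 4, had the largest difference of the 8 markers, 5.93. The 2 called towards the cochlea were MYO6 and ESPN, with differences of -0.64 and -0.72. All 8 tested supporting cell markers passed, 5 towards the utricle and 3 towards the cochlea. SOX2, a transcription factor of these cells, read 8.90 ± 0.24 in the utricle and 7.60 ± 0.39 in the cochlea. The 3 higher in the cochlea were TECTA, TECTB and HEY1, with differences of -1.87, -0.48 and -0.65. JAG1, among the 5 higher in the utricle, read 2.22 to 2.87 on the cochlear arrays and passed the filter only through the utricle. PCDH15, LHX3 and FGFR3 stayed under 4 on every array.

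Some markers of glia and connective tissue showed the same split of the utricle arrays. MBP, a myelin protein, read 12.19 and 12.20 on utricle arrays 2 and 3 against 8.003 and 7.68 on arrays 1 and 4, with 8.60 to 9.73 in the cochlea. The matrix protein DCN read 8.32 and 8.09 against 5.33 and 5.61, and the myelin protein PMP22 read 10.15 and 10.47 against 8.70 and 9.24. SOX10, a glial transcription factor, did not split so (12.28 to 12.59 in the utricle).

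Of the 49 genes, the utricle was higher for 13, the cochlea was higher for 14, and 22 missed the threshold. The 27 calls make up 55.1% of the members, against 53.2% of all named genes (26.5% towards the utricle and 26.6% towards the cochlea). Counts of calls for single families and gene lists are to be read against these shares. Without utricle arrays 2 and 3 the calls were 14 towards the utricle and 11 towards the cochlea. A call with a fitted difference of 2-fold or more was made towards the utricle for 6 of the 49 members, against 11.2% of all genes. Among these 6, KIF20B and KIF23 passed the filter only through the utricle, and their fitted differences rest on cochlear values under 4. Towards the cochlea such a call was made for 8 of the 49, against 9.93% of all genes. The arrays of the 2 organs did not overlap for 27 of the 49 members, compared with 50.9% of all genes. The median difference was 0.08 over the members and 0.00 over all genes, so the class as a whole stood near the background. In bulk tissue such as this, fewer cells of a type and less RNA per cell cannot be told apart.

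**Figure D1:**
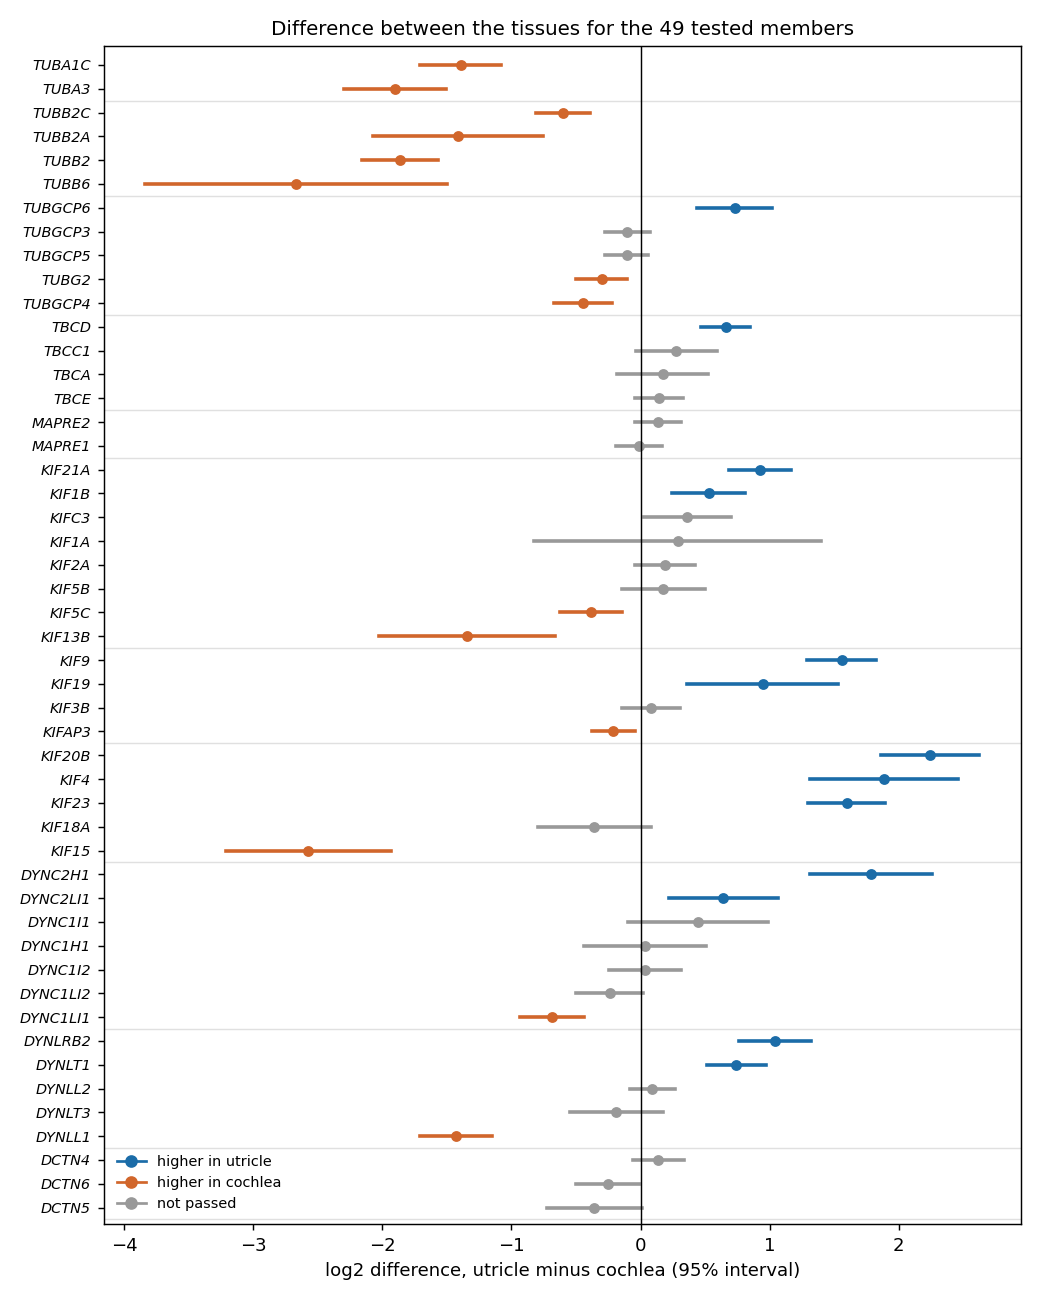
Difference in log2 signal between utricle and cochlea for each of the 49 tested genes, with 95% confidence intervals from limma (4 arrays per organ) and grouped by family. Points to the left of 0 are higher in the cochlea. All 6 alpha and beta tubulins lie to the left, while 3 of 5 mitotic kinesins and the ciliary dynein chain DYNC2H1 lie to the right. Among these kinesins, KIF20B and KIF23 passed the filter only through the utricle.

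The alpha and beta tubulins, the subunits of the microtubule itself, were higher in the cochlea in all 6 cases, and for 5 the difference exceeded 2-fold. TUBA1C, an alpha tubulin that RefSeq now names TUBA1A, read 12.39, 12.76, 12.94 and 12.94 on the utricle arrays and 14.01, 14.27, 14.21 and 14.11 on the cochlear arrays. Every cochlear array lay above every utricle array, a 2.63-fold difference (-1.39, -1.71 to -1.08, adjusted p = 4.57e-05). TUBA3, another alpha tubulin, gave 8.18, 8.11, 8.51 and 8.73 in the utricle and 10.22, 10.36, 10.56 and 9.99 in the cochlea. Its groups were again apart, by 3.74-fold (-1.90, -2.30 to -1.51, adjusted p = 2.73e-05). A second probe set of TUBA1C had a difference of -1.22 (adjusted p = 0.000118).

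Among the beta tubulins, TUBB2, now TUBB2B and a major isotype of neural tissue, read 11.72, 11.40, 11.56 and 11.38 in the utricle against 13.41, 13.37, 13.62 and 13.12 in the cochlea. The cochlear arrays were all higher, by 3.64-fold (-1.87, -2.16 to -1.57, adjusted p = 5.17e-06). TUBB2A, a close relative, showed 7.08, 7.63, 7.80 and 8.49 in the utricle and 8.73, 9.09, 9.42 and 9.42 in the cochlea, with the highest utricle array just below the lowest cochlear one. The difference was 2.66-fold (-1.41, -2.07 to -0.75, adjusted p = 0.00343), and a second probe set gave -1.33. TUBB2C, now TUBB4B, a broadly expressed isotype that also builds cilia, read 13.58, 13.91, 13.74 and 13.76 in the utricle and 14.32, 14.42, 14.38 and 14.29 in the cochlea. It had the smallest difference of the family, 1.52-fold (-0.60, -0.81 to -0.39, adjusted p = 0.000602), again with no overlap.

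TUBB6, a beta tubulin given here under its name in the annotation, read 4.38, 5.16, 4.82 and 2.58 on the utricle arrays. It read 7.15, 6.78, 7.23 and 6.44 on the cochlear arrays. All cochlear arrays were brighter, and utricle array 4 fell below the others and below the filter. The difference was at least 4.97-fold, with utricle values under 4 raised to 4 (measured means 4.23 ± 1.15 and 6.90 ± 0.36, adjusted p = 0.00237), and the fitted difference went from -2.67 to -3.42 without the CALB1-bright utricle arrays 2 and 3. The name TUBB6 covers 2 gene entries in the annotation, and the probe set of the other entry pointed the opposite way without passing (5.37 in the utricle, 4.72 in the cochlea, difference 0.65, adjusted p = 0.0732). Tubulin genes are near-identical over much of their coding sequence, so probes of one may also read another, and the 6 values are not independent. No gene entered the comparison under the name TUBB3, the neuronal beta tubulin, so no value is given for it. Whether either entry named TUBB6 is another beta tubulin was not tested.

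Markers of neurons did not share one direction. Of 9 named neuronal markers 6 were tested, with 3 called towards the cochlea, 2 towards the utricle and 1 not passing, and their summed linear signal was 4750 to 7049 on the utricle arrays and 21546 to 26269 on the cochlear arrays. The neurofilament genes NEFM and NEFL and the transcription factor ISL1 were higher in the cochlea, by at least 455-fold, 5.98-fold and 3.90-fold. NEFM was under 4 on every utricle array and passed the filter only through the cochlea, and the cochlear sum comes mostly from ISL1 and NEFM (13.86 and 12.83 on the log2 scale). DCX, a microtubule-binding protein of young neurons, and SNAP25, a synaptic membrane protein, were higher in the utricle, by 18.4-fold and 1.41-fold, and the dendritic protein MAP2 had a difference of 0.19 (adjusted p = 0.619). NEFH, SYT1 and STMN2 stayed under 4 on every array. The part of neuronal RNA in the tubulin differences was not tested.

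**Figure D2:**
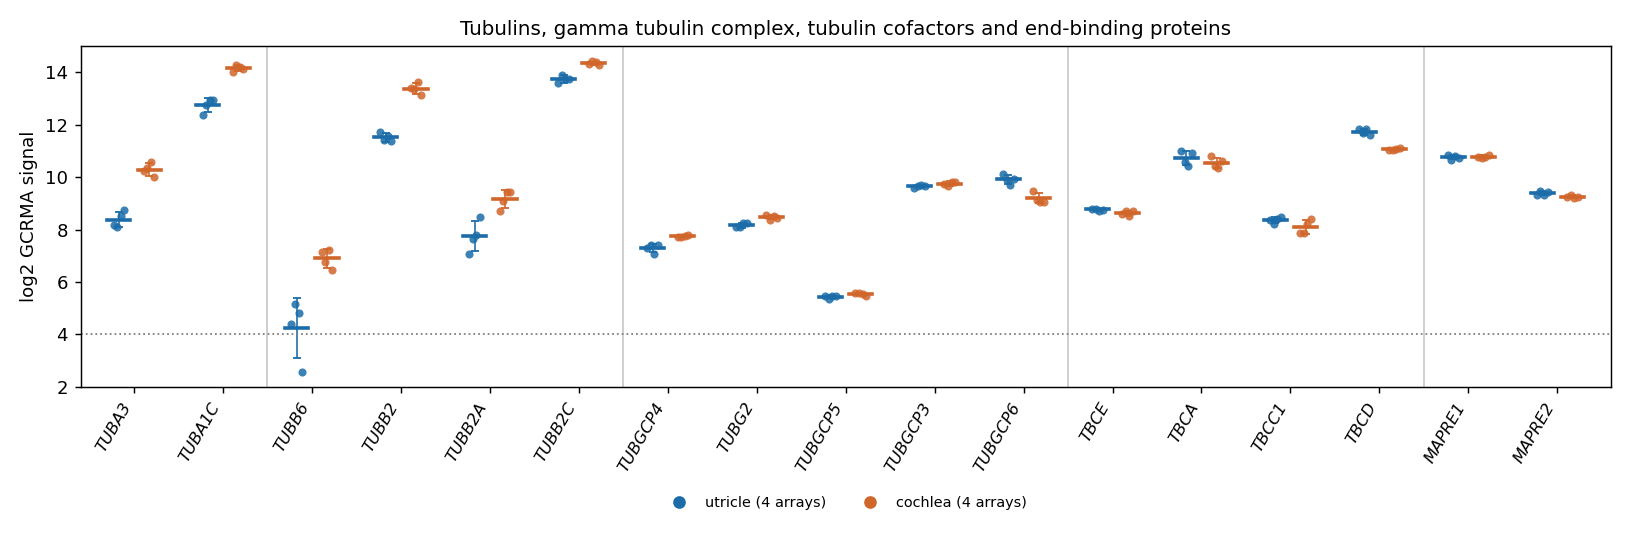
Log2 GCRMA signal of the tubulins, the gamma tubulin complex, the tubulin cofactors and the end-binding proteins on each array (points), with the mean and SD over 4 arrays per organ. The dotted line marks the filter at 4, and grey lines separate the families. The 2 organs are apart for every alpha and beta tubulin and close for most genes to their right.

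Gamma tubulin and its partners form the ring from which new microtubules grow, and 5 of 6 such genes were tested. The calls were 1 towards the utricle and 2 towards the cochlea, none of them 2-fold, and the median difference was -0.11. TUBGCP6, a large ring subunit, was higher in the utricle by 1.66-fold (9.92 ± 0.17 against 9.19 ± 0.19, adjusted p = 0.00137), although its second probe set had a smaller difference of 0.25 that did not pass (adjusted p = 0.054). TUBGCP4, another ring subunit, was higher in the cochlea by 1.36-fold (7.30 ± 0.17 and 7.74 ± 0.03, adjusted p = 0.00531). TUBG2, a gamma tubulin, was higher in the cochlea by 1.23-fold (8.17 ± 0.09 and 8.48 ± 0.09, adjusted p = 0.0169), a call that was lost without the CALB1-bright utricle arrays (adjusted p = 0.0622). It read 8.08 and 8.26 on those utricle arrays and 8.10 and 8.25 on utricle arrays 1 and 4. TUBGCP3 and TUBGCP5 differed by -0.10 and -0.11 (adjusted p = 0.288 and 0.252), and the second TUBGCP3 probe set pointed the other way at 0.10. TUBG1, the other gamma tubulin, sat at 2.22, the lowest value in the table, on all 8 arrays and was not tested.

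The tubulin cofactors fold and join the 2 tubulin subunits. TBCD, which takes part in assembling the dimer and taking it apart, was the 1 of 4 that passed, with 11.82, 11.69, 11.82 and 11.60 in the utricle and 11.05, 11.05, 11.06 and 11.12 in the cochlea. The utricle arrays were all higher, by 1.58-fold (0.66, 0.47 to 0.85, adjusted p = 0.000193), opposite in direction to the tubulins. TBCA, which holds free beta tubulin, and TBCE, which acts on alpha tubulin, differed by 0.17 and 0.14 (adjusted p = 0.386 and 0.172). TBCC1, a TBCC domain protein counted among the 4 by its name alone, differed by 0.28 (adjusted p = 0.124). With the replicate number as a block, TBCC1 passed (adjusted p = 0.0435), so that 2 of the 4 genes grouped by name were then higher in the utricle. TBCC1 also passed without cochlear array 4 (adjusted p = 0.0322). TBCC, which completes dimer assembly, lay just under the filter at means of 3.49 and 3.55.

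Neither end-binding protein, a class that rides on growing plus ends, passed. MAPRE1 read 10.76 ± 0.08 in the utricle and 10.77 ± 0.06 in the cochlea, a difference between -0.19 and 0.17. MAPRE2 read 9.39 ± 0.08 and 9.25 ± 0.06, a difference between -0.04 and 0.31 (adjusted p = 0.183).

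Of 33 named kinesins 17 were tested, giving 7 calls towards the utricle, 4 towards the cochlea and 6 genes that missed the threshold. Of the 10 kinesins grouped here under cell division 5 were tested, with 3 calls towards the utricle and 1 towards the cochlea. KIF4, a chromosome-bound motor of the mitotic spindle, read 8.69, 7.91, 8.22 and 7.69 in the utricle and 6.56, 6.10, 6.53 and 5.77 in the cochlea. The organs were apart by 3.70-fold (1.89, 1.31 to 2.46, adjusted p = 0.00028), and its second probe set gave 1.50 (adjusted p = 0.00082).

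KIF20B and KIF23, motors of the spindle midzone and of cytokinesis, passed the filter only through the utricle, so that a difference in that direction was the only one they could show at these levels. KIF20B gave 4.93, 4.75, 5.45 and 5.21 in the utricle and 2.61, 2.99, 2.78 and 2.99 in the cochlea. KIF23 gave 4.58, 4.78, 4.68 and 4.66 in the utricle and 2.90, 3.39, 2.85 and 3.18 in the cochlea. No cochlear array reached 4 for either gene, and the utricle exceeded it at least 2.12-fold for KIF20B (adjusted p = 8.03e-06) and at least 1.60-fold for KIF23 (adjusted p = 1.47e-05).

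KIF15, which helps to hold the spindle poles apart and is also known from the processes of neurons in rodents, ran the other way. It read 4.51, 4.17, 4.92 and 4.17 in the utricle and 6.74, 7.25, 7.64 and 6.42 in the cochlea. Every cochlear array was brighter, by 5.95-fold (-2.57, -3.21 to -1.93, adjusted p = 8.56e-05). KIF18A, which limits the length of spindle microtubules, differed by -0.36 (-0.79 to 0.08, adjusted p = 0.15), and passed without utricle array 1 (adjusted p = 0.0476). The other kinesins of this group, KIF2B, KIF2C, KIF14, KIF24 and KIFC1, were under 4 on all 8 arrays. The highest single arrays were at 3.40 for KIF24 and 3.37 for KIF2C.

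Other genes of the cell cycle showed both directions as well. The 14 tested gave 9 calls towards the utricle and 2 towards the cochlea (78.6%, against 53.2% of all named genes), with a median of 0.80. SMC2, among the 9, read 2.30 to 2.65 on the cochlear arrays and passed the filter only through the utricle. MKI67, a marker of dividing cells, exceeded its cochlear signal at least 5.27-fold (6.53 ± 0.07 against 3.88 ± 0.54), and TOP2A, which untangles DNA before division, was 2.03-fold higher there. PCNA, a clamp of DNA replication, was higher in the cochlea (difference -0.33), as was the spindle checkpoint gene MAD2L1 (-0.72). Leukocyte markers were higher in the utricle in all 4 tested cases, with a summed linear signal of 1989 to 2035 there and 1011 to 1300 in the cochlea. That sum comes mostly from CD3E, which was 1.59-fold higher (10.70 and 10.03 on the log2 scale). LCP1 and CSF1R were higher by at least 12.6-fold and by 2.66-fold. Of these markers, LAPTM5 read 3.34 to 3.93 on the cochlear arrays and passed the filter only through the utricle, as KIF20B and KIF23 did. KIF4 was also higher in the utricle, while KIF15 and KIF18A were not. The part of leukocytes in the kinesin and cell cycle differences was not tested.

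**Figure D3:**
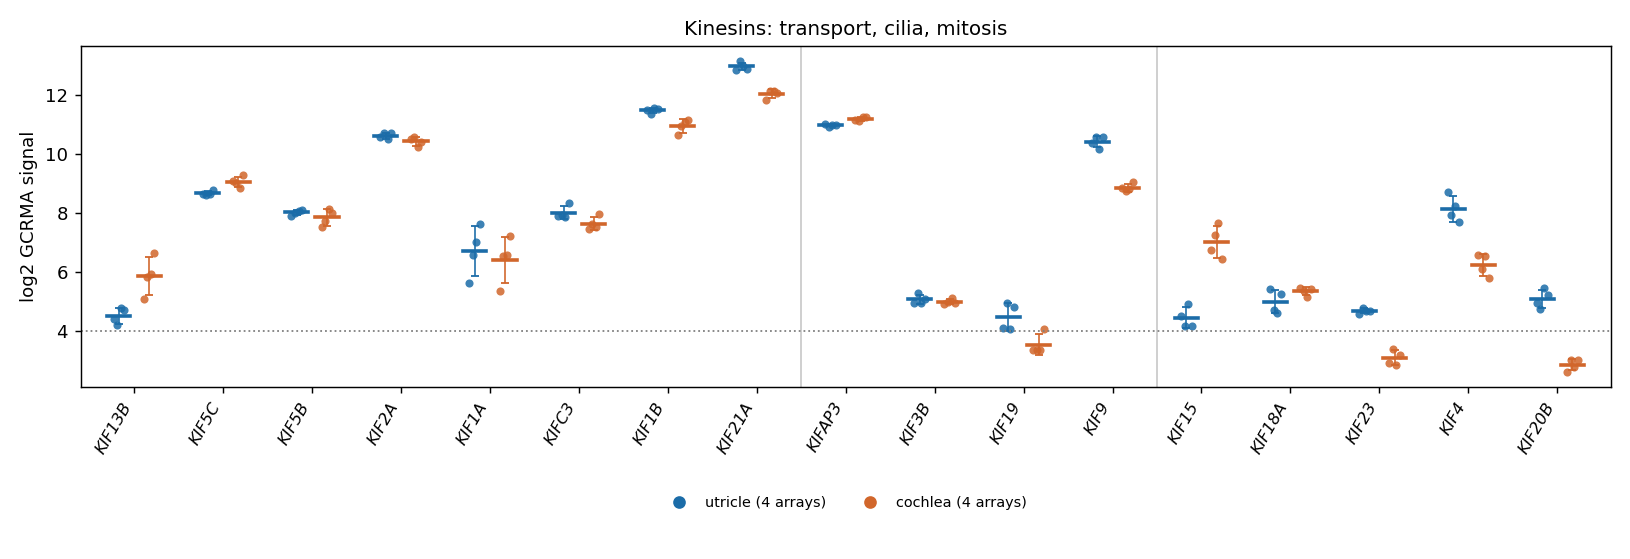
Log2 GCRMA signal of the 17 tested kinesins on each array (points), with the mean and SD over 4 arrays per organ, in the order transport, cilia, mitosis (grey lines). The dotted line marks the filter at 4. KIF15 is higher in the cochlea, KIF4, KIF20B and KIF23 are higher in the utricle, and KIF1A spreads widely within both organs. KIF20B and KIF23 lie not far above the filter in the utricle and under it in the cochlea.

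Among the kinesins of cilia, 4 of 9 were tested, with 2 calls towards the utricle and 1 towards the cochlea. KIF9, known from the central apparatus of motile cilia, read 10.36, 10.55, 10.16 and 10.55 in the utricle and 8.84, 8.73, 8.79 and 9.03 in the cochlea. The utricle arrays were all higher, by 2.95-fold (1.56, 1.29 to 1.83, adjusted p = 8.76e-06), and the other 2 probe sets gave 1.33 and 1.03. KIF19, which in mice trims the tips of motile cilia, gave 4.09, 4.94, 4.06 and 4.81 in the utricle and 3.35, 3.35, 3.35 and 4.06 in the cochlea. It passed the filter through the utricle and 1 cochlear array, overlapped by that array, and exceeded its cochlear level at least 1.37-fold in the utricle (adjusted p = 0.0137, and 0.0728 with no filter).

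The kinesin-2 motor, which carries material to the tips of cilia, showed little difference. Its cargo-binding subunit KIFAP3 was 1.16-fold higher in the cochlea (10.97 ± 0.04 and 11.18 ± 0.06, adjusted p = 0.0404), and the call was lost in 10 of 21 alternatives, among them those without any one utricle array (adjusted p = 0.0593 to 0.0738) and those without cochlear array 1, 3 or 4 (0.0646, 0.096 and 0.0852). Its motor subunit KIF3B differed by 0.08 (-0.15 to 0.30, adjusted p = 0.533). KIF3A, the partner of KIF3B, lay just under the filter at means of 3.29 and 3.61, with its highest array at 3.85. KIF7 and KIF27, known from hedgehog signalling and ciliary motility, were also under 4 throughout.

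Of the transport and microtubule-regulating kinesins, 8 of 13 were tested, with 2 calls in each direction. KIF21A, a kinesin that stalls microtubule growth at the cell cortex, read 12.84, 13.13, 12.98 and 12.88 in the utricle and 11.82, 12.11, 12.14 and 12.06 in the cochlea. The organs did not overlap, and the difference was 1.90-fold (0.92, 0.68 to 1.17, adjusted p = 0.000112), with 1.11 at a second probe set. KIF1B, a carrier of mitochondria and synaptic vesicle precursors, was 1.44-fold higher in the utricle (11.47 ± 0.09 against 10.95 ± 0.23, adjusted p = 0.00675).

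KIF13B, a plus-end motor of vesicles, was the one transport kinesin with a 2-fold call. Its values were 4.41, 4.18, 4.76 and 4.69 in the utricle and 5.06, 5.82, 5.91 and 6.63 in the cochlea. The cochlear arrays were all brighter and more spread, with a difference of 2.54-fold (-1.34, -2.03 to -0.66, adjusted p = 0.00531). KIF5C, a neuron-enriched heavy chain of conventional kinesin, was 1.31-fold higher in the cochlea (8.66 ± 0.07 and 9.04 ± 0.18, adjusted p = 0.0143), a call lost without the CALB1-bright utricle arrays (adjusted p = 0.0937). It read 8.60 and 8.64 on those utricle arrays and 8.64 and 8.76 on utricle arrays 1 and 4. KIF5B, the ubiquitous heavy chain, differed by 0.18 (-0.14 to 0.50), and its second probe set by -0.23, neither passing.

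KIF1A, a neuronal carrier of synaptic vesicle precursors, varied more within the organs than between them. It read 5.614, 6.559, 7.003 and 7.617 on utricle arrays 1 to 4 and 5.341, 6.523, 6.577 and 7.197 on cochlear arrays 1 to 4. Arrays with the same number lay close together across the organs, and the utricle array was the higher of each pair. The haemoglobin gene HBBA, a marker of red blood cells, was also low on the arrays numbered 1 and high on those numbered 4 (utricle 8.91, 11.77, 13.26 and 13.48, cochlea 8.83, 12.18, 11.86 and 14.004). The hair cell markers OTOF and ESPN also rose from array 1 to array 4 in both organs. OTOF read 10.60, 11.07, 11.33 and 11.65 in the utricle and 8.94, 10.11, 10.35 and 10.62 in the cochlea. ESPN read 9.39, 9.63, 10.04 and 10.38, and then 10.12, 10.50, 10.70 and 10.99. Not all hair cell markers shared this order, and MYO6 fell from 9.73 to 9.26 in the utricle. The part of blood or hair cells in the KIF1A values was not tested. The difference of 0.29 (-0.82 to 1.40) did not pass (adjusted p = 0.645), but did with the replicate number as a block (adjusted p = 0.0443). KIFC3, a minus-end-directed kinesin that RefSeq now names KIFC2, had a difference of 0.36 that also passed with the block (adjusted p = 0.0689 without and 0.00691 with it, and 0.0245 without cochlear array 4), which brought this family to 4 of 8 higher in the utricle. KIF2A, which takes tubulin off microtubule ends, differed by 0.19 (adjusted p = 0.147).

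All 7 named chains of cytoplasmic dynein were tested, 2 from the ciliary form of the motor and 5 from the general one. Of dynein-2, which returns material from the tips of cilia, both chains with a DYNC name were higher in the utricle. Its intermediate chains, which carry other names, did not pass, with WDR60 at -0.52 (adjusted p = 0.0601) and WDR34 at 0.34 (adjusted p = 0.118). TCTEX1D2, a light chain of dynein-2, was higher in the utricle at 0.51 (adjusted p = 0.00143). DYNC2H1, its heavy chain and motor, read 9.11, 9.80, 9.63 and 9.79 in the utricle and 7.34, 8.14, 7.92 and 7.80 in the cochlea. The organs were well apart, by 3.44-fold (1.78, 1.31 to 2.26, adjusted p = 0.000127), and the other 3 probe sets gave 1.67, 0.93 and 2.02, all called. DYNC2LI1, its light intermediate chain, gave 6.82, 5.94, 6.58 and 6.53 in the utricle and 5.94, 5.84, 5.95 and 5.58 in the cochlea. Utricle array 2 fell among the cochlear arrays, and the difference was 1.56-fold (0.64, 0.22 to 1.06, adjusted p = 0.0184, and 0.0507 without cochlear array 4).

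Dynein-1, the general minus-end motor of the cytoplasm, did not share that direction. Its heavy chain DYNC1H1 read 11.67, 11.45, 11.14 and 11.20 in the utricle and 11.75, 11.49, 11.27 and 10.82 in the cochlea. The groups overlapped throughout, with a difference of 0.03 (-0.44 to 0.50, adjusted p = 0.903). The light intermediate chain DYNC1LI1, which links the motor to cargo adaptors, was 1.61-fold higher in the cochlea (8.05 ± 0.13 and 8.74 ± 0.16, adjusted p = 0.000788), with no overlap. The intermediate chain DYNC1I2 and the light intermediate chain DYNC1LI2 differed by 0.03 and -0.24 (adjusted p = 0.84 and 0.112). DYNC1I1, a neuron-enriched intermediate chain, differed by 0.44 (adjusted p = 0.15), and passed without utricle array 2 (0.67, adjusted p = 0.0111) or without arrays 2 and 3 (0.69, adjusted p = 0.0317). No test compared the difference of dynein-2 with that of dynein-1.

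**Figure D4:**
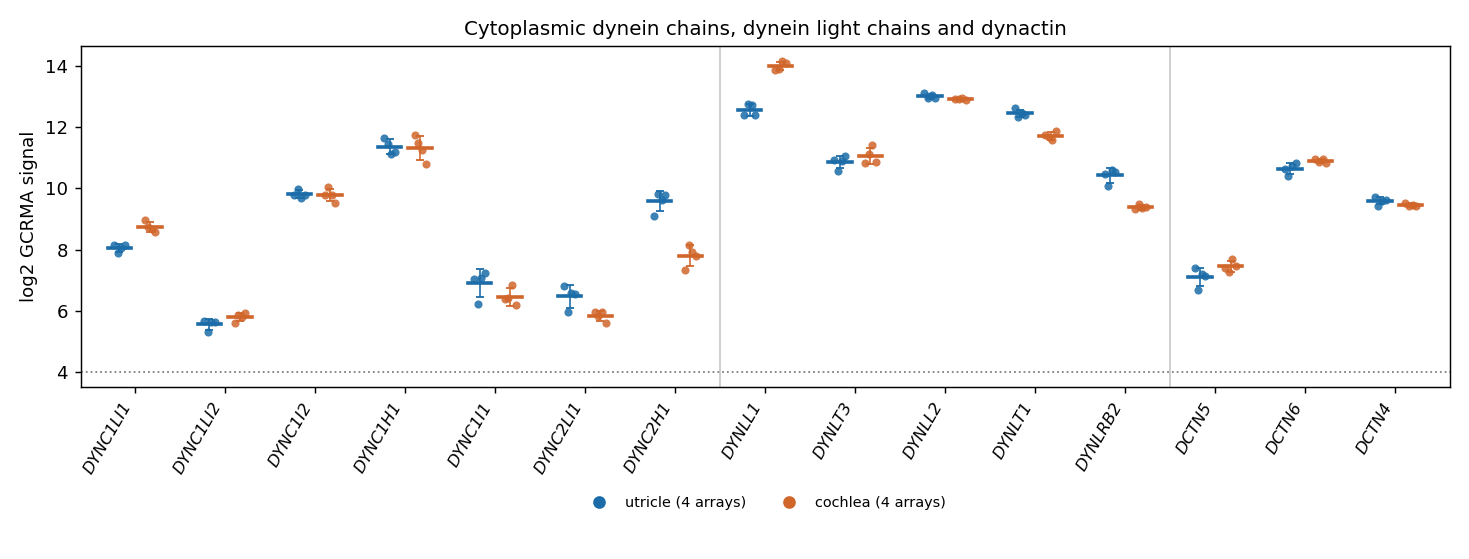
Log2 GCRMA signal of the cytoplasmic dynein chains, dynein light chains and dynactin subunits on each array (points), with the mean and SD over 4 arrays per organ. Grey lines separate the 3 families. DYNC2H1 and DYNLRB2 are high in the utricle, DYNLL1 is high in the cochlea, and most other genes overlap or lie close.

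The dynein light chains, small subunits that several dyneins and other proteins share, split in both directions. DYNLL1, a light chain that dimerises many partners, read 12.41, 12.78, 12.73 and 12.42 in the utricle and 13.89, 13.90, 14.16 and 14.11 in the cochlea. The cochlear arrays were all higher, by 2.70-fold (-1.43, -1.71 to -1.15, adjusted p = 1.89e-05). The name DYNLL1 covers 2 gene entries, and the other, dim probe set did not pass (5.34 and 5.23, difference 0.11, adjusted p = 0.404). Its paralog DYNLL2 differed by 0.09 (-0.08 to 0.27, adjusted p = 0.344).

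DYNLRB2, a roadblock-type light chain found with ciliary dyneins, read 10.48, 10.09, 10.60 and 10.54 in the utricle and 9.31, 9.49, 9.35 and 9.38 in the cochlea. All utricle arrays were higher, by 2.06-fold (1.04, 0.77 to 1.32, adjusted p = 0.000131). DYNLT1, a Tctex-type light chain, was 1.67-fold higher in the utricle (12.46 ± 0.12 against 11.72 ± 0.13, adjusted p = 0.000309), with 0.62 at its second probe set. DYNLT3, of the same type, differed by -0.19 (-0.55 to 0.17, adjusted p = 0.346).

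None of the 3 dynactin subunits, which help dynein to hold its cargo, passed. DCTN4 and DCTN6, of the complex's pointed end, differed by 0.14 and -0.26 (adjusted p = 0.218 and 0.0747), and for DCTN6 the lowest cochlear array, at 10.85, lay just above the highest utricle array, at 10.84. That gene passed without utricle array 4 (adjusted p = 0.0391). DCTN5, also of the pointed end, differed by -0.36 (adjusted p = 0.0954) and passed with the replicate block (adjusted p = 0.042) or without utricle array 1 (adjusted p = 0.0491). One of its other probe sets was called towards the cochlea (-0.38, adjusted p = 0.0332) and the other pointed to the utricle (0.39, adjusted p = 0.076).

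Genes of intraflagellar transport, the traffic that kinesin-2 and dynein-2 drive in cilia, leaned towards the utricle. Of 18 tested 14 were called higher there and none towards the cochlea (77.8%), with a median of 0.63. Among all named genes 26.5% were called towards the utricle and 26.6% towards the cochlea. The list includes the dynein-2 chains WDR34, WDR60 and TCTEX1D2, so it is not separate from that motor. TTC21B, a subunit of the particle that serves the return trip, had the largest difference of the list, 1.45 (adjusted p = 1.07e-05). Of 20 tested genes of motile cilia, 16 were called towards the utricle and 2 towards the cochlea (90.0%, against 53.2% of all named genes), with a median of 1.90. Among these, SPAG6 and AK7 were under 4 on every cochlear array and passed the filter only through the utricle. CAPSL was under 4 on every utricle array and passed it only through the cochlea. CCDC40, the other gene called towards the cochlea, was above 4 on all arrays and 5.94-fold higher there (7.07 ± 0.36 and 9.64 ± 0.08, adjusted p = 3.73e-06).

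The other microtubule genes are a list mostly of proteins that bind, cut, modify or anchor microtubules. They gave 14 calls towards the utricle and 15 towards the cochlea among 62 tested, or 46.8%, with a median of 0.13. The list, and so this share and median, also takes in chaperonin and prefoldin subunits (CCT, TCP1 and PFDN genes) and the capping proteins CAPZA1 and CAPZB. MACF1, also counted, read 4.02 on every array. Towards the utricle, TPPP3, which bundles microtubules, was at least 19.6-fold higher (8.30 ± 0.46 against 2.40 ± 0.26), and it passed the filter only through the utricle. DCX was 18.4-fold higher, as above. MAP6, which makes microtubules resist cold, was 3.39-fold higher (10.48 ± 0.22 against 8.72 ± 0.08), and NIN, which anchors microtubules at the centrosome, was at least 7.80-fold higher (6.96 ± 0.54 against 3.89 ± 0.09), with 1 cochlear array at the filter.

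Towards the cochlea the same list held DCLK1, a kinase of the doublecortin family, 3.33-fold higher (5.47 ± 0.23 and 7.21 ± 0.09). TTLL7, which adds glutamate chains to tubulin, was 2.78-fold higher (8.09 ± 0.31 and 9.57 ± 0.26). PFDN1, a prefoldin subunit that hands new tubulin and actin to their chaperonin, was 1.92-fold higher (9.89 ± 0.14 and 10.83 ± 0.10), and SSNA1, a microtubule-associated protein of centrosomes, was 1.87-fold higher (7.09 ± 0.11 and 7.99 ± 0.30). The doublecortin relatives DCX and DCLK1 thus differed in opposite directions, as did the tubulins and their cofactor TBCD.

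**Figure D5:**
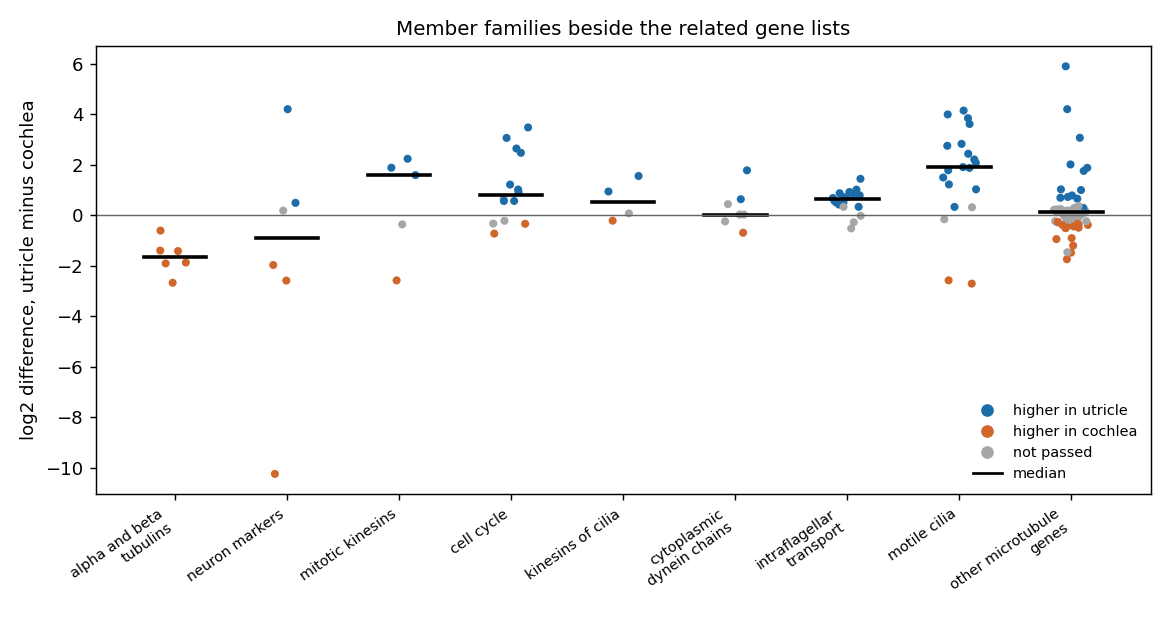
Difference in log2 signal between utricle and cochlea for single genes (points) of 4 member families and 5 related lists, with the median as a black line. Blue points were called higher in the utricle and orange points higher in the cochlea at an adjusted p under 0.05. The alpha and beta tubulins lie below 0, and the motile cilia and intraflagellar transport genes lie mostly above it.

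Most further probe sets of these genes moved with the chosen ones. The 49 genes had 30 further tested probe sets, of which 23 pointed the same way as the main one. For the called genes it was 16 of 18, with 13 of these called as well, and the exceptions were the second gene entries under the names TUBB6 and DYNLL1. The authors' deposited tables of their own SAM comparison listed 12 of the members as higher in the utricle and 10 as higher in the cochlea, all 22 in the direction given here. That comparison rests on the same arrays, so the shared direction is not independent support. For 21 of them the fold in the authors' deposited tables was 0.98 to 1.10 times the fitted one, taken without raising values under 4. For KIF19, KIF20B, KIF23 and TUBB6 the authors' fold was 1.92, 4.91, 3.32 and 6.87. These lie above the lower bounds printed here for the same genes (1.37, 2.12, 1.60 and 4.97). For KIF4 the deposited table gives 2.55, below the 3.70-fold that the deposited log2 values give, and the reason is not known. All 18 members that were not tested lay under 4 on all 8 arrays.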

How the data were processed

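The deposited values are log2 signals that the authors made with GCRMA, per the submitters' processing notes, with no version given. The authors' SAM comparison gives each called probe set a fold ratio in their deposited tables. Here the calls of members were counted and their folds were set beside the fitted ones. Values of the workbook and of the value table were the same. Array names in the workbook start with a prefix, whose meaning is not given here. The larger prefix covers 6 of the 8 arrays and both organs. With those arrays alone, 12 members were called towards the utricle and 11 towards the cochlea. Each array held 38535 probe sets; 96 controls were left out and 14107 had no name. A further 136 columns of per-array values were not used. Names were checked against RefSeq, and no coordinates were used.

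The 16223 probe sets that read above 4 on 4 or more of the 8 arrays entered a two-sided comparison in limma (lmFit, eBayes; version 3.58.1, R 4.3.3), with Benjamini-Hochberg adjustment over all of them. A call needs an adjusted p below 0.05. Where an array of the dimmer organ was under 4, the fold is written "at least", with values under 4 raised to 4. The script was tested on simulated data. Tables and plots used Python 3.11.15, pandas 2.3.3 and matplotlib 3.10.9. The members, the families, the 14 gene lists and the tests were chosen with earlier results of these data known. Named were, in each family, the brightest gene, those at least 2-fold different, the gene just under the filter and every gene of small families, and from the other microtubule genes the 4 with the smallest adjusted p in each direction; other genes were named after their values were seen.

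Arrays with the same replicate number deviated together, with correlations of 0.552, 0.480, 0.404 and 0.144 for numbers 1 to 4. All exceed 0.1, and by the rule used here the numbers were taken as a pairing, whose meaning is not given in the labels. The main comparison did not use this pairing, so its intervals and p-values are unpaired. The replicate number entered only as a block in an alternative fit. Correlations between arrays of different numbers are not given here, so a closer match of equal numbers is not shown. The p-values cover only the spread between these arrays, whose number limits the precision. Beside the lists of neurons, leukocytes, hair cells, supporting cells, the cell cycle, motile cilia, intraflagellar transport and other microtubule genes, 6 lists held markers of other cells. Of Schwann cell and glia markers 1 of 4 tested was higher in the utricle and 3 did not pass. The 1 tested melanocyte marker and the 1 tested endothelial marker were higher in the utricle. That melanocyte marker, DCT, read 2.36 to 2.94 on the cochlear arrays and passed the filter only through the utricle. The 1 tested muscle marker was higher in the cochlea, and none of 3 erythrocyte and 2 fibroblast markers passed.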

Additional observations from a re-analysis of the deposited data

Results flagged for a closer look

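Of 98 sets of 4 arrays checked (49 genes in 2 organs), 4 held an array whose gap to the nearest other exceeded Dixon's 95% critical value, taken relative to the range; chance gives about 1 in 20. DYNC1LI2 read 5.29 on utricle array 2 against 5.62 to 5.65 on the other utricle arrays. KIF19 read 4.06 on cochlear array 4 against 3.35 on the others. TUBGCP3 read 9.60 on utricle array 1 against 9.67 to 9.69, and TUBGCP5 read 5.35 on utricle array 2 against 5.46 to 5.48. Of these genes only KIF19 had a call.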

How the results depend on the processing

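Of 27 called genes, 18 kept their call in every one of the alternatives in which they had a value (at most 21), 7 lost it in at least 1 and 2 changed direction at their dimmest probe set. The calls counted 9 to 16 towards the utricle and 11 to 15 towards the cochlea over all alternatives, with 16 and 15 under the replicate block, and the other microtubule genes 12 to 16 and 10 to 18. Among the members the block changed no other call than those given beside TBCC1, KIF1A, KIFC3 and DCTN5. It brought the other microtubule genes from 14 to 16 and from 15 to 18 calls, with 0 lost, and without utricle arrays 2 and 3 these were 13 and 10. Calls were lost for KIFAP3 (adjusted p up to 0.147), KIF5C (0.0937), TUBG2 (0.0937 with the arrays of the larger name prefix alone), DYNC2LI1 (0.0807 with no filter), KIF19 (0.0728 with no filter), and, at the dimmest probe set, TUBGCP4 (0.132) and TUBGCP6 (0.054). At that probe set TUBB6 was 0.65 and DYNLL1 0.11, both from the other gene entry, KIF20B was 1.60, TUBGCP3 0.10, MAPRE2 -0.0409, TBCE -0.0563 and KIF5B -0.23 (-0.0276 as the mean over its probe sets). As means over probe sets TUBB6 was -1.01 and DYNLL1 -0.66. Without utricle arrays 2 and 3 TUBB6 was -3.42, since array 4 then weighs more. Among genes without a call, the sign turned for DYNC1H1 (-0.014 with equal medians, -0.138 to 0.1728 leaving out 1 array), DYNC1I2 (-0.0146 with equal medians, -0.0531 to 0.1179 leaving out 1 array), KIF1A (-0.0672 to 0.6504 leaving out 1 array), KIF3B (-0.021 with quantile normalization) and MAPRE1 (0.0182 with quantile normalization, 0.0064 with array weights, 0.0203 without utricle arrays 2 and 3, -0.037 to 0.0229 leaving out 1 array). Unless stated, the cause was not tested. Of 22 genes without a call, 8 passed in at least 1 alternative. Values near 4 are close to the array's background and bound the fold of dim genes only from below.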
